A study of Caenorhabditis elegans with 9 samples.

Results

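The vitellogenin genes vit-1 to vit-6 encode the yolk proteins of the nematode Caenorhabditis elegans. On the array used here, 10 of 22625 probe sets carried one of their symbols in the platform annotation, and these 10 were taken as they stand. They named 5 of the 6 genes. One probe set named vit-1 (177065_at), 1 named vit-2 (191323_at), 3 named vit-4 (171723_x_at, 172134_x_at and 172673_x_at), 1 named vit-5 (172696_x_at) and 2 named vit-6 (173411_s_at and 190649_at). A further 2 named vit-4 and vit-5 together (172133_x_at and 194239_x_at), and none named vit-3, which lies next to vit-4 on chromosome X among the protein-coding genes of RefSeq. The genes vit-1, vit-2, vit-4 and vit-5 also lie on chromosome X, and vit-6 lies on chromosome IV.

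The samples were fed L4 larvae, animals in their final larval stage, of 3 strains with 3 arrays each. The strains were the wild type, ogt-1(ok430), which has lost the O-GlcNAc transferase that puts the sugar O-GlcNAc on nuclear and cytoplasmic proteins, and oga-1(ok1207), which has lost the O-GlcNAcase that takes it off. Both are mutant strains, so every cell of the animal carries the allele, and the labels name no treatment or other allele. Each array was made from the RNA of a pool of 20 larvae that had been hand-picked at a like stage of vulval development. The labels call the arrays of a strain biological replicates but do not say that they came from separate cultures, so the p-values measure the spread between these samples, which may be partly technical.

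Vitellogenins are large lipid-carrying proteins related to the apolipoprotein B of vertebrates. In C. elegans they are made in the intestine of hermaphrodites and not of males, secreted into the body cavity, and taken up by growing oocytes through the receptor RME-2. Their transcription begins around the passage from L4 to adulthood and then becomes very strong, so their level also follows the age of the animal. The genes vit-3, vit-4 and vit-5 are near-identical in sequence, and vit-1 and vit-2 form a second related group. The product of vit-6 is the most distant, and it is cut into smaller yolk polypeptides. In the naming of these arrays, the ending _x_at marks a probe set with probes that can also bind other transcripts, and _s_at one shared by similar transcripts. The 6 probe sets of vit-4 and vit-5 all end in _x_at, so signal from vit-3, vit-4 and vit-5 cannot be told apart by name, and these probe sets are not independent measurements. RNA of whole larvae was used, in which fewer cells of a type and less RNA per cell cannot be told apart.

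The deposited values are log2 signals with an array mean of 5.91 on all 9 arrays and a highest signal of 14.75 to 14.93 on each. Of the 10 vitellogenin probe sets, 9 had a mean above 10. Intestine markers in the wild type ranged from itx-1 at 4.95 ± 0.07 to asp-1 at 12.86 ± 0.08 (SD, n = 3 for each). The proton pump subunit vha-6 was at 10.34 ± 0.05 (SD, n = 3). The male neuron genes cwp-1 and cwp-2 were dim there, at 4.03 ± 0.05 and 3.93 ± 0.05 (SD, n = 3 for each). The other male markers lov-1, klp-6 and pkd-2 read 5.24, 5.17 and 5.03. Their levels over all arrays lay at percentiles 44.0 to 47.6 of all probe sets, so absence of male transcripts is not shown. The ogt-1 transcript fell by 0.87 and 0.42 on the log2 scale in ogt-1 mutants by its 2 probe sets, and no oga-1 probe set was called in oga-1 mutants. Where these probe sets lie relative to the deletions was not analysed here, so they check the labels only in part.

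Every vitellogenin probe set but 1 had its lowest strain mean in ogt-1 mutants and its highest in oga-1 mutants. A difference of 1 on the log2 scale is 2-fold, and all differences were smaller than that except that of vit-1 between the mutants. In the comparison of ogt-1 mutants with the wild type, 5 of 10 probe sets fell by limma at an adjusted p under 0.05 and none rose. All of these calls but that of vit-1 were of vit-4 and vit-5 probe sets. Those are not independent measurements, so the count is not one of separate genes. Of all 22548 tested probe sets 17.3% were called, 9.15% lower and 8.1% higher. Among the 862 other probe sets with a mean above 10, 20.9% were lower and 27.6% higher. The median difference over the 10 was -0.35, against -0.02 over all probe sets. The 3 ogt-1 arrays lay wholly below the 3 wild-type arrays in 6 of the 10, as they did in 18.8% of all probe sets.

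**Figure D1:**
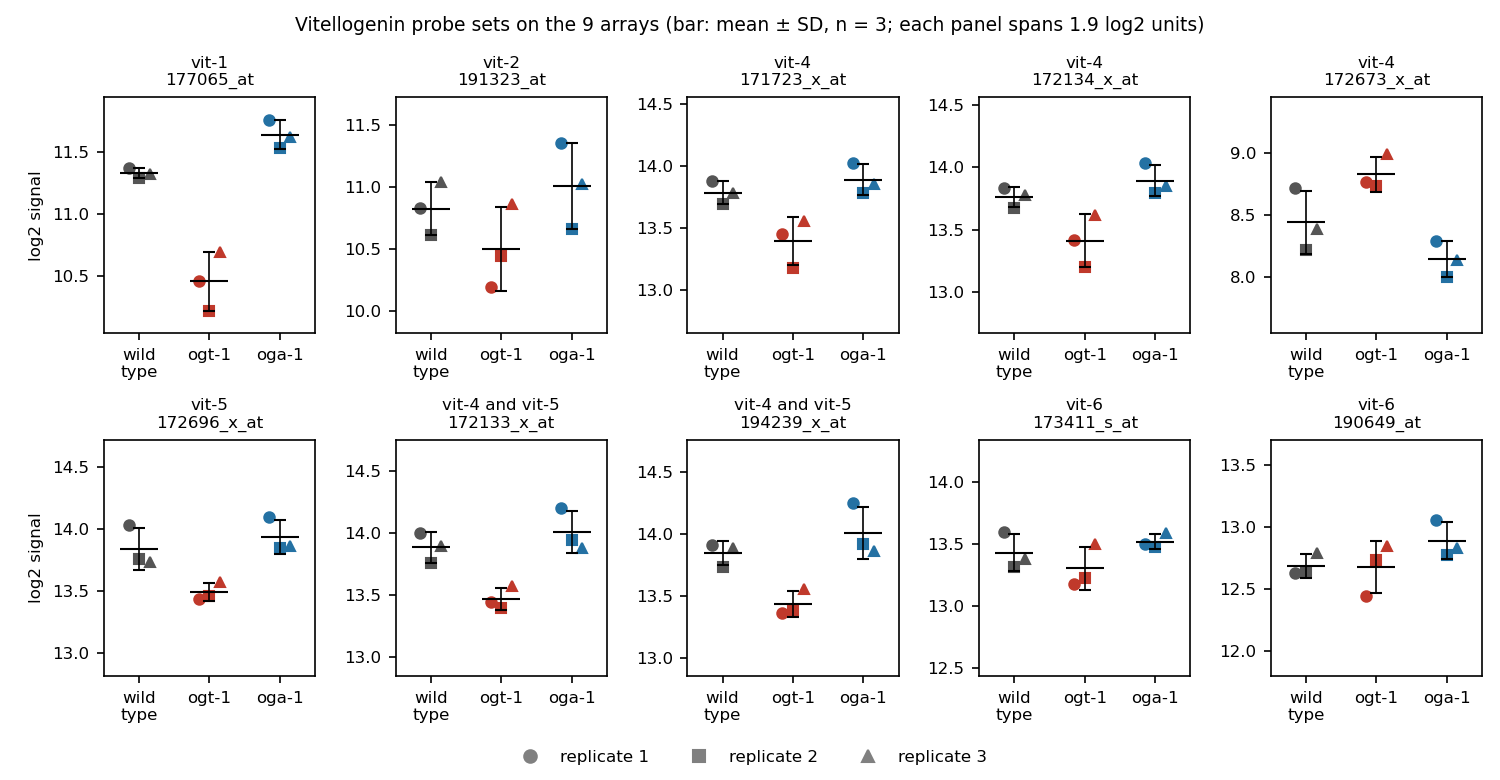
The log2 signal of each of the 10 vitellogenin probe sets is plotted for the 3 strains, with 1 symbol per replicate array and bars for the mean ± SD (n = 3). The ogt-1 arrays of vit-1 lie between 10.22 and 10.69, below all wild-type and oga-1 arrays, while those of the vit-4 probe set 172673_x_at lie above all others.

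The vit-1 probe set gave the largest log2 difference of the family. Its signal was 11.37, 11.30 and 11.33 on the wild-type arrays, 10.46, 10.22 and 10.69 on the ogt-1 arrays, and 11.76, 11.53 and 11.62 on the oga-1 arrays. The 3 strains did not overlap: each ogt-1 array was below each wild-type array, and each oga-1 array was above. The mean fell from 11.33 ± 0.04 to 10.46 ± 0.24 (SD, n = 3 each) in ogt-1 mutants, a log2 difference of -0.87 with a standard error of 0.12, or 54.6% of the wild-type signal (limma adjusted p = 0.00037). This call held without each single array in turn. In oga-1 mutants the mean was 11.64 ± 0.12 (SD, n = 3), a difference of 0.31 that was not called (adjusted p = 0.26; 95% interval 0.05 to 0.57). The mean of vit-1 over all arrays was 11.14. The bright vit-4 and vit-5 probe sets lay at 13.69 to 13.79, nearer the highest signal of each array. Whether log2 differences at such unlike levels compare in size was not tested.

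The vit-2 probe set varied most between arrays of the same strain. It read 10.83, 10.61 and 11.04 in the wild type, 10.19, 10.44 and 10.86 in ogt-1 mutants, and 11.35, 10.66 and 11.02 in oga-1 mutants. All 3 strains overlapped. The difference of ogt-1 mutants from the wild type was -0.33 (95% interval -0.75 to 0.10; limma adjusted p = 0.33), so a fall as large as that of the vit-4 and vit-5 probe sets lies within its interval. The difference of oga-1 mutants was 0.18 (95% interval -0.24 to 0.61).

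The 5 bright probe sets of vit-4 and vit-5 moved almost as 1 measurement. The vit-4 probe set 171723_x_at read 13.88, 13.69 and 13.78 in the wild type, 13.45, 13.18 and 13.56 in ogt-1 mutants, and 14.02, 13.78 and 13.85 in oga-1 mutants. The vit-5 probe set 172696_x_at read 14.04, 13.76 and 13.73 in the wild type, 13.44, 13.46 and 13.58 in ogt-1 mutants, and 14.10, 13.85 and 13.87 in oga-1 mutants. In all 5 the ogt-1 arrays lay below every wild-type and every oga-1 array, while wild-type and oga-1 arrays overlapped. The differences of ogt-1 mutants from the wild type ran from -0.42 to -0.35, which is 75.0% to 78.5% of the wild-type signal. Of these probe sets 4 fell by limma: 172133_x_at (adjusted p = 0.02), 194239_x_at (0.028), 171723_x_at (0.035) and 172696_x_at (0.047). The vit-4 probe set 172134_x_at, at -0.35, did not pass (adjusted p = 0.061).

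These 4 calls were close to the threshold and did not hold without single arrays. When array 1 of the wild type or array 1 or 2 of ogt-1 mutants was left out, none of the 4 was called, with differences from -0.42 to -0.25 on the log2 scale. The count of called vitellogenin probe sets, in either direction, was 2 without wild-type array 1, 3 without wild-type array 2, 2 without wild-type array 3, and 1 without ogt-1 array 1 or 2. With the arrays centred on their medians it was 2, vit-1 and 172133_x_at.

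The remaining vit-4 probe set, 172673_x_at, ran the other way. It read 8.72, 8.22 and 8.39 in the wild type, 8.76, 8.73 and 8.99 in ogt-1 mutants, and 8.29, 8.0 and 8.14 in oga-1 mutants. Each ogt-1 array was above every array of the other strains, as 14.3% of all probe sets were against the wild type. The difference of ogt-1 mutants from the wild type was 0.39 with a standard error of 0.13 and was not called (limma adjusted p = 0.069). With the replicate number as a block in the fit it was called (adjusted p = 0.0407), as it was without wild-type array 1 (0.53, adjusted p = 0.0174). It was also called with quantile normalization (adjusted p = 0.0488) and with array weights (adjusted p = 0.0265). Against oga-1 mutants it was higher by 0.69, a 1.61-fold difference (limma adjusted p = 0.0028), and this call was kept without any 1 array.

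Within each array, 172673_x_at minus the mean of the other vit-4 probe sets was higher in ogt-1 mutants than in the wild type by 0.76, lower in oga-1 mutants than in the wild type by a difference of -0.41, and higher in ogt-1 than in oga-1 mutants by 1.17. In each of these comparisons the 3 arrays of the strains did not overlap, and the two-sided exact permutation test gave its smallest possible p, 0.1 (0.109 after adjustment over 12 such comparisons). This quantity was formed after 172673_x_at had been seen to run the other way, so it describes that pattern and is no separate test of it. Which transcript 172673_x_at binds was not analysed here.

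The vit-6 probe sets did not pass the test in any comparison. The probe set 173411_s_at read 13.60, 13.31 and 13.38 in the wild type, 13.18, 13.23 and 13.51 in ogt-1 mutants, and 13.50, 13.47 and 13.59 in oga-1 mutants. The probe set 190649_at read 12.63, 12.64 and 12.79 in the wild type, 12.44, 12.74 and 12.85 in ogt-1 mutants, and 13.06, 12.77 and 12.83 in oga-1 mutants. All strains overlapped in both. The differences of ogt-1 mutants from the wild type were -0.13 (95% interval -0.37 to 0.12; limma adjusted p = 0.55) and -0.01 (95% interval -0.27 to 0.25; adjusted p = 0.97).

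The members were also compared with each other within each array, where no comparison can pass the test with 3 arrays a strain. The signal of vit-1 minus the mean of the vit-6 probe sets was lower in ogt-1 mutants than in the wild type, by a difference of -0.80. The mean of the 5 bright vit-4 and vit-5 probe sets minus that of vit-6 differed by -0.31, and vit-1 minus the vit-4 and vit-5 mean by -0.49. The arrays of the strains did not overlap in any of these, and the two-sided exact permutation p was 0.1 in each (0.109 over the 12 comparisons). In oga-1 mutants against the wild type, vit-1 minus vit-6 differed by 0.16 and vit-1 minus the vit-4 and vit-5 mean by 0.18, also without overlap and with the same exact p. The vit-4 and vit-5 mean minus vit-6 differed there by -0.02 (exact permutation p = 0.9, two-sided). With 3 arrays against 3, groups do not overlap by chance in 10% of cases. These quantities are formed from the same signals as the differences above, so they describe them and are no separate test. The members lie at unlike levels, and whether their differences compare in size was not tested.

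**Figure D2:**
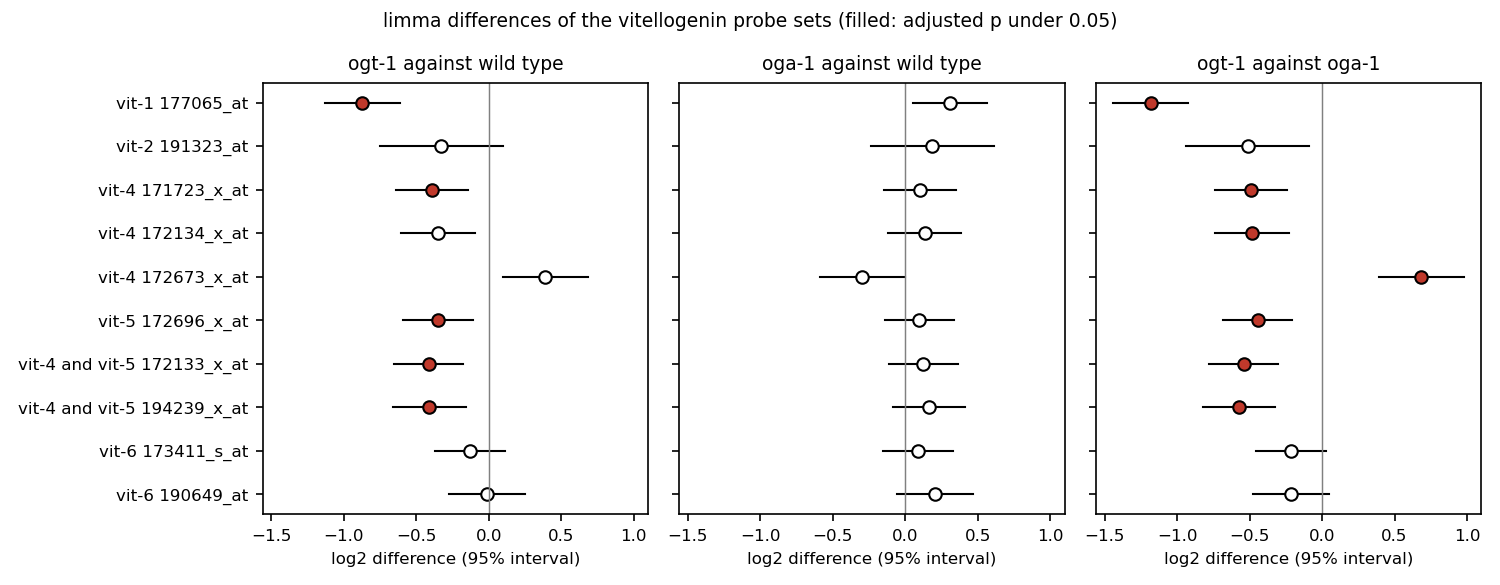
The log2 difference of each vitellogenin probe set is plotted with its 95% interval from limma for the 3 comparisons, with filled points at an adjusted p under 0.05. In ogt-1 mutants against the wild type 5 points are filled, all below 0, none is filled in oga-1 mutants against the wild type, and 7 are filled between the mutants, 6 below 0 and 172673_x_at above.

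In oga-1 mutants no vitellogenin probe set passed the test against the wild type. By limma 0 of 10 were called, where 0.257% of all probe sets and 0.928% of the other probe sets with a mean above 10 were called. An unadjusted p under 0.05 was found for 2 of 10 (vit-1 and 172673_x_at), and for 14.7% of all probe sets. The differences ran from -0.30 for 172673_x_at to 0.31 for vit-1, with 9 of 10 above 0 and a median of 0.13, against -0.01 over all probe sets. The 95% intervals of the 10 together spanned -0.59 to 0.61, so the missing calls do not show equal levels. The oga-1 arrays lay wholly above the wild-type arrays in 1 of 10, vit-1, as in 9.53% of all probe sets.

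The mutants differed more from each other than either did from the wild type. Between ogt-1 and oga-1 mutants 6 of 10 vitellogenin probe sets were lower in ogt-1 mutants and 1 was higher, where 23.9% of all probe sets were called, 14.2% lower and 9.63% higher. All of these vitellogenin calls but that of vit-1 were of vit-4 and vit-5 probe sets, which are not independent measurements. Among the 862 other probe sets with a mean above 10, 28.2% were called lower and 28.1% higher. The arrays of the mutants did not overlap in these same 7, as in 19.1% of all probe sets in the lower and 16.5% in the higher direction. The vit-1 signal was lower by a log2 difference of -1.18 with a standard error of 0.12, or 44.1% of the oga-1 signal (limma adjusted p = 4.1e-05). The 5 bright vit-4 and vit-5 probe sets differed by -0.57 to -0.45 (limma adjusted p = 0.0033 to 0.011). Among the 7 calls, the only one lost when any 1 array was left out was that of the vit-5 probe set 172696_x_at, without oga-1 array 1 (-0.37, adjusted p = 0.0501). The vit-2 difference of -0.51 was not called (adjusted p = 0.079), but was called without ogt-1 array 3 (-0.69, adjusted p = 0.0236) or oga-1 array 2 (-0.69, adjusted p = 0.0262), and with the replicate number as a block (adjusted p = 0.0496). Quantile normalization (limma adjusted p = 0.0201), array weights (0.0232) and centring on bright probe sets (0.0215) also gave a call of vit-2. The 2 vit-6 probe sets differed by -0.22 and -0.21 (adjusted p = 0.2 and 0.24). The comparisons of the mutants with the wild type share the wild-type arrays, and each is given by its own values.

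Replicate arrays of a strain differed in the vitellogenins about as much as in other transcripts. The median within-strain SD over the 10 probe sets was 0.15, against 0.14 over all tested probe sets and 0.14 over the other probe sets with a mean above 10. The lowest was 0.13 (172133_x_at) and the highest 0.31 (vit-2), with no other above 0.19. In ogt-1 mutants the 3 arrays of vit-1 spanned 0.47 and those of vit-2 0.67, while the wild-type arrays of vit-1 spanned 0.08.

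Arrays that were high for a vitellogenin tended to be high for the rest of the family too. Over the 9 probe sets with a mean above 10, the mean deviation from the strain mean was highest on ogt-1 array 3, at 0.18, where all 9 lay above their strain mean, and on oga-1 array 1, at 0.16, where 8 of 9 did. It was lowest on oga-1 array 2, at -0.12, and on wild-type array 2, at -0.10, and on both none of the 9 lay above its strain mean. On the same 4 arrays the other probe sets with a mean above 10 deviated from their strain means by 0.06, 0.01, -0.03 and -0.01 on average. Across the 9 arrays the deviations of the 5 bright vit-4 and vit-5 probe sets correlated at r = 0.65 to 0.98 (10 pairs). Those of vit-1 correlated at 0.98 with the vit-4 probe set 172134_x_at, and those of vit-2 at 0.90 with the vit-6 probe set 190649_at. The 2 vit-6 probe sets correlated at only 0.36. These values describe 9 arrays whose probe sets share the RNA sample and, in part, the sequence.

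The vit-4 probe set 172673_x_at followed the family within strains and opposed it between them. Its deviations from the strain mean correlated with those of the 9 other probe sets at r = 0.37 to 0.90, with a median of 0.76. Its levels over the same 9 arrays, strain differences included, correlated with theirs at -0.76 to -0.24. As descriptions of 9 arrays these correlations carry no test.

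**Figure D3:**
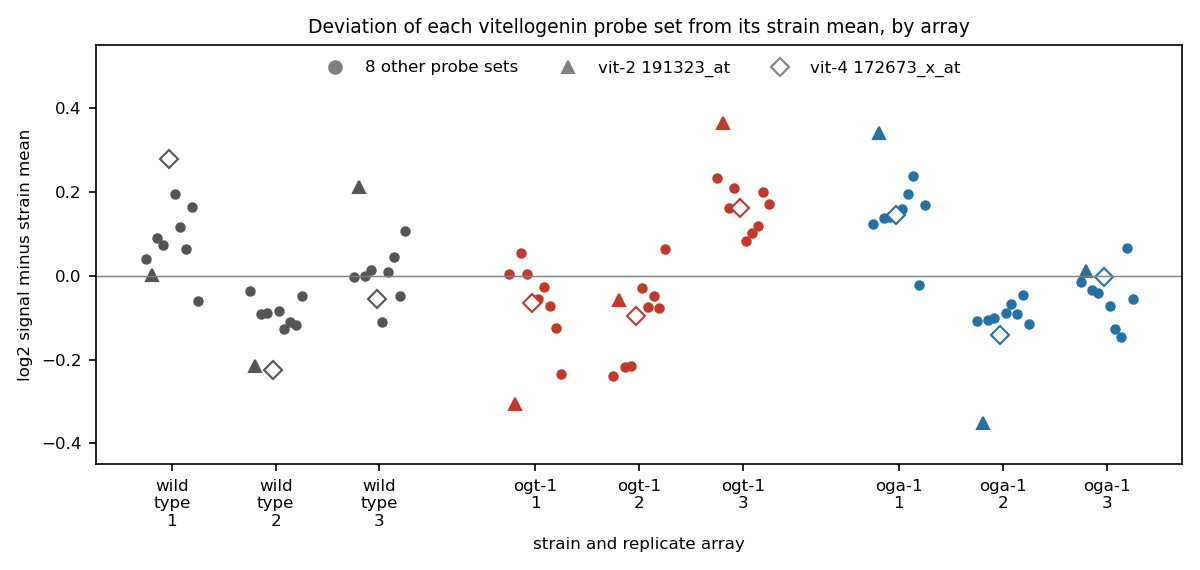
For each array, the log2 signal of each vitellogenin probe set minus the mean of its strain is plotted, with circles for 8 probe sets, filled triangles for vit-2 and open diamonds for the vit-4 probe set 172673_x_at. All points of ogt-1 array 3 lie above 0 and all points of oga-1 array 2 and wild-type array 2 below 0, and vit-2 has the widest scatter.

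Genes that act on yolk synthesis were followed through a list of 17, all measured, of which 4 rose and 1 fell in ogt-1 mutants, with a median of 0.01. Over all probe sets 8.1% were higher and 9.15% lower, with a median of -0.02. The homeodomain factor ceh-60, which in the intestine activates vitellogenin genes, rose from 5.95 ± 0.29 to 7.10 ± 0.23 (SD, n = 3 each), a log2 difference of 1.15 (limma adjusted p = 0.00093). The intestinal GATA factor elt-7 rose by 0.84 (adjusted p = 0.0028), and the zinc-finger factor pqm-1 by 0.64 (adjusted p = 0.016). The gene dsc-4, which encodes the microsomal triglyceride transfer protein that loads lipid onto such carriers, rose by 0.44 (adjusted p = 0.02). The subunit rict-1 of the TORC2 kinase complex fell by 0.50 (adjusted p = 0.0018).

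The regulators elt-2 and unc-62, an intestinal GATA factor and a homeodomain partner of ceh-60, differed by 0.20 and 0.09 and were not called (adjusted p = 0.39 and 0.81). Neither were mab-3 (0.15), which represses vitellogenin genes in males, lin-29 (-0.18), which acts at the switch from larva to adult, or daf-16 (-0.25), the FOXO factor of insulin signalling (adjusted p = 0.3, 0.56 and 0.25). The calls of pqm-1 and dsc-4 depended on single arrays. That of pqm-1 was lost without wild-type array 1 (0.61), wild-type array 2 (0.55), ogt-1 array 2 (0.60) or ogt-1 array 3 (0.51). That of dsc-4 was lost without wild-type array 2 (0.33) or ogt-1 array 2 (0.37), and with arrays centred on bright probe sets (0.33, adjusted p = 0.0717). In oga-1 mutants 0 of 17 were called by limma against the wild type, where 0.257% of all probe sets were.

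Of 11 genes of yolk uptake and endocytosis, all measured, 2 fell and none rose in ogt-1 mutants, with a median of -0.17 against -0.02 over all probe sets. Over all probe sets 9.15% were lower and 8.1% higher, and this count is near the 17.3% called in either direction. The yolk receptor rme-2 read 11.36 ± 0.10 in the wild type, 10.89 ± 0.14 in ogt-1 mutants and 11.51 ± 0.19 in oga-1 mutants (SD, n = 3 each). It fell by 0.47 in ogt-1 mutants (limma adjusted p = 0.014), a call that was lost without wild-type array 1 (-0.41, adjusted p = 0.0631) or ogt-1 array 2 (-0.39, adjusted p = 0.0689). The recycling GTPase rab-11.1 fell by 0.36 (adjusted p = 0.026), a call lost without array 1 or 3 of the wild type or array 1 or 2 of ogt-1 mutants, with differences from -0.37 to -0.29, and with an intensity trend and robust variances (adjusted p = 0.0703). Between the mutants 4 of 11 were lower in ogt-1 mutants, where 14.2% of all probe sets were: rme-2 (-0.61), the clathrin heavy chain chc-1 (-0.35), the late endosomal GTPase rab-7 (-0.37) and rme-1 (-0.60), which recycles the receptor. The mean signal of rab-7 over all arrays was only 4.92, at percentile 35.8 of all probe sets. The calls of chc-1 and rme-1 were lost without oga-1 array 1 (-0.36 and -0.54). The call of chc-1 was also lost without oga-1 array 2, ogt-1 array 1 or 2 or wild-type array 1 (-0.37 to -0.26), and was not called with the replicate number as a block (adjusted p = 0.0545), with quantile normalization (-0.27, adjusted p = 0.135), with an intensity trend (0.068), with array weights (0.0599) or in the fit of the mutants alone (0.0631). Against the wild type rme-1 differed by 0.00 in ogt-1 mutants (adjusted p = 1).

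Other cell types were read through marker lists, because yolk is made in the intestine and received by oocytes. Of 11 intestine markers 3 rose and 2 fell in ogt-1 mutants, with a median of 0.14, where 8.1% of all probe sets were higher and 9.15% lower. Those that rose were the protease cpr-1 (1.36), elt-7 and the esterase ges-1 (0.68), and those that fell were the acid phosphatase pho-1 (-1.19) and the intestinal actin act-5 (-0.91). The mean log2 signal of the list was 8.67 to 8.92 on the wild-type arrays, 8.85 to 8.97 on the ogt-1 arrays and 8.75 to 8.88 on the oga-1 arrays, and the strains overlapped. The call of ges-1 was lost without array 1 or 2 of the wild type or array 2 or 3 of ogt-1 mutants, with differences from 0.56 to 0.69.

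Oocyte markers moved with the vitellogenins. Of 12, which include rme-2, 9 fell and none rose in ogt-1 mutants, with a median of -0.43, where 9.15% of all probe sets and 20.9% of those with a mean above 10 were lower. Among them the Y-box proteins cey-3 (-0.71) and cey-2 (-0.43), the maturation factor oma-2 (-0.67) and the chitin synthase chs-1 (-0.64) fell, and each call was kept without any 1 array. The egg surface gene egg-1 fell by 0.43, a call lost without the same 4 arrays as that of rab-11.1 (-0.43 to -0.32), and the eggshell gene cbd-1 (-0.39) was not called (adjusted p = 0.053), but was with the replicate number as a block (adjusted p = 0.0231), with quantile normalization (-0.56, adjusted p = 0.00729) and under 5 other alternatives. The mean log2 signal of the 12 was 10.33 to 10.51 on the wild-type arrays, 9.79 to 10.08 on the ogt-1 arrays and 10.53 to 10.71 on the oga-1 arrays, with no overlap between strains. In oga-1 mutants against the wild type, however, 0 of 12 were called by limma, where 0.257% of all probe sets were. Between the mutants 11 of 12 were lower in ogt-1 mutants, where 14.2% of all probe sets and 28.2% of those with a mean above 10 were. The part of oocyte number or maturity in the vitellogenin differences was not tested.

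Some sperm markers went the other way, and genes of the adult cuticle showed no call. Of 11 measured sperm markers 4 rose in ogt-1 mutants and none fell, with a median of 0.17, where 8.1% of all probe sets and 27.6% of those with a mean above 10 were higher. These 4 were the small sperm proteins ssp-16 (0.52) and ssp-10 (0.45), the fertilisation protein spe-38 (0.37) and the sperm phosphatase gsp-4 (0.67). The uncalled spe-26 (-0.28), spe-41 (-0.26), spe-15 (-0.10) and spe-9 (-0.02) had differences below 0, and the other measured members above 0. The phosphatase gsp-3 (0.56) was not called (adjusted p = 0.051), but was with the replicate number as a block (adjusted p = 0.038) and under 5 other alternatives. The calls of ssp-16 and ssp-10 were lost without array 1 of the wild type or array 1 or 2 of ogt-1 mutants, with differences from 0.34 to 0.53, and that of ssp-16 also without ogt-1 array 3 (0.54). Quantile normalization ended the calls of ssp-16 (adjusted p = 0.0734), ssp-10 (0.0782) and gsp-4 (0.117), and the centring on bright probe sets those of ssp-16 (0.059), ssp-10 (0.0535) and spe-38 (0.146). The calls of spe-38 and gsp-4 were lost without any 1 of the same arrays and further ones, falling to 0.27 and 0.37 without wild-type array 1, and that of spe-38 also with the replicate number as a block (adjusted p = 0.0547). Median centring ended both calls (limma adjusted p = 0.0638 for spe-38 and 0.074 for gsp-4). That of spe-38 was also lost with an intensity trend (0.0511), and that of gsp-4 in the fit of these 2 strains alone (0.0726). The mean log2 signal of the 11 was 7.48 to 7.98 on the wild-type arrays, 7.91 to 8.01 on the ogt-1 arrays and 7.57 to 7.82 on the oga-1 arrays. The wild-type arrays thus overlapped those of both mutants. Of 3 measured genes of the adult cuticle none was called in any comparison. The adult collagen col-19 read 11.89 ± 0.06, 11.96 ± 0.14 and 11.79 ± 0.06 in the wild type, ogt-1 and oga-1 mutants (SD, n = 3 each). The mean signals of bli-1 and bli-2 were only 4.48 and 5.65. Of 5 male markers none was called. In ogt-1 mutants against the wild type 17.3% of all probe sets were called, so lists this short without a call do not show equal levels.

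**Figure D4:**
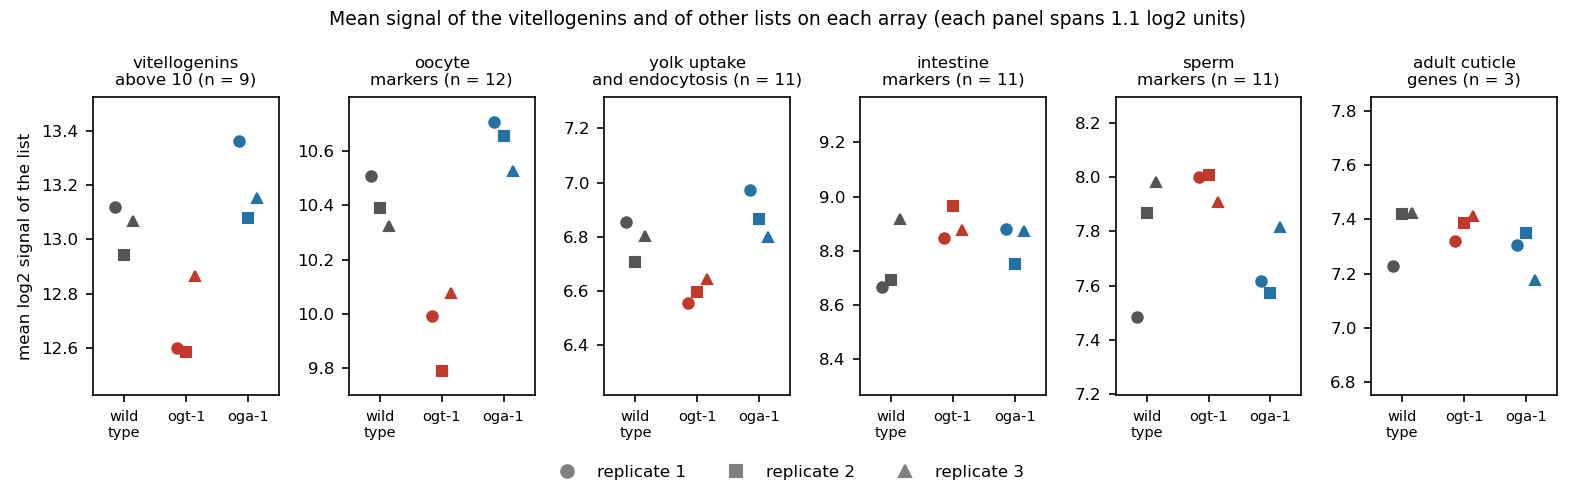
The mean log2 signal of 9 vitellogenin probe sets and of 5 marker or pathway lists is plotted for each array, by strain and replicate. The vitellogenin, oocyte and yolk uptake lists are lowest on the ogt-1 arrays, where the oocyte list lies between 9.79 and 10.08, while the intestine list overlaps between strains.

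Array controls also differed between the strains. The signal of actin at its 3' end minus that at its 5' end, a measure of how much of the transcript the amplified RNA covers, was 4.77 ± 0.05 in the wild type, 4.04 ± 0.12 in ogt-1 mutants and 4.20 ± 0.26 in oga-1 mutants (SD, n = 3 each). That of Gapdh was 3.24 ± 0.10, 2.87 ± 0.13 and 3.12 ± 0.16 (SD, n = 3 each), where the oga-1 arrays (2.95 to 3.28) overlapped the wild-type arrays (3.13 to 3.31) and the ogt-1 arrays (2.72 to 2.96). The other probe sets with a mean above 10 were higher on the ogt-1 arrays than on the wild-type arrays by a median of 0.08, against a median of -0.35 for the vitellogenins. With the arrays centred on these bright probe sets, a scaling chosen after the data were seen, 6 of 10 vitellogenin probe sets fell in ogt-1 mutants and 0 rose, while the share of all probe sets called lower went from 9.15% to 16.8% and the share called higher from 8.1% to 6.56%. The part of RNA amplification in the vitellogenin differences was not tested.

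The transcripts most like the vitellogenins over the 9 arrays were sought among 10619 probe sets that name 1 other gene and have a mean above the median. By Pearson correlation with the mean of the 10 vitellogenin probe sets the highest were Y6D1A.1 (r = 0.99), the DnaJ-domain gene dnj-29 (0.99), ZK829.7 (0.99), the cohesin regulator wapl-1 (0.98) and the proteasome subunit rpn-3 (0.98). Such values were common, since 561 of the candidates had an r above 0.9 and the median was 0.31. Over the deviations from the strain means the highest were the ABC transporter mrp-4 (0.98), wapl-1 (0.98), dvc-1 (0.98), the cystinosin homologue ctns-1 (0.98) and dnj-29 (0.97), with 189 candidates above 0.9. The genes dnj-29 and wapl-1 stood in both sets.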

How the data were processed

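Per the labels' protocols, total RNA of 20 larvae was amplified with T7 polymerase, and biotinylated cRNA was made for each Affymetrix array. The deposited values are log2 probe set signals on a scale common to the 9 arrays. MAS5, RMA and Partek appear in the submitters' processing notes, without a role. Symbols came from the platform annotation, updated through gene identifiers to the RefSeq table of WBcel235. No coordinates are given, because no source used here names the array's build.

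All 22548 probe sets other than 77 controls entered 1 linear model (lmFit, contrasts.fit and eBayes of limma 3.58.1, R 4.3.3), without a filter on signal. Strain was the only term, which leaves 6 residual degrees of freedom. A probe set was called at a two-sided Benjamini-Hochberg adjusted p under 0.05 within a comparison, and "rose", "fell", "higher" and "lower" in counts refer to such calls. The fit was tested on simulated data. In the other lists a gene stood by its probe set with the highest mean. Named were all vitellogenin probe sets, ogt-1 and oga-1, up to 6 called genes per list by smallest p, 8 genes of yolk synthesis and uptake whatever their result, and the 5 most correlated genes by each measure. Added after their values were seen were vha-6, itx-1, asp-1, the male markers, col-19, bli-1, bli-2, spe-9, spe-15, spe-26 and spe-41. Members and lists were chosen with earlier results of these data known.

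Replicate numbers recur in each strain, but no label ties equal numbers to each other. Deviations of the 9 same-numbered pairs of arrays correlated at -0.17 to 0.24, so arrays were taken as unpaired. The fit was repeated on 2 strains at a time, after quantile normalization or median centring, on probe sets above the median level, with limma-trend and robust variances, with weighted arrays, with the replicate block and without each array. Centring on bright probe sets was added after seeing the data. The number of arrays limits the precision.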

Additional observations from a re-analysis of the deposited data

How the results depend on the processing

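The vit-1 calls in ogt-1 mutants against the wild type and against oga-1 mutants were kept under all 17 alternatives, with differences from -1.04 to -0.75 and from -1.30 to -1.06. Against the wild type, 5 vitellogenin probe sets were called in ogt-1 mutants, 2 with median centring, and 1 to 5 when 1 array was left out. The count was 7 with the replicate block, quantile normalization or array weights. It was 6 with an intensity trend or with arrays centred on bright probe sets. Between the mutants 7 were called, and 6 to 8 without 1 array. With the replicate block, quantile normalization, array weights or the centring on bright probe sets 8 were called. In oga-1 mutants against the wild type none was called by limma under any alternative. With the replicate block the vit-4 probe sets 172134_x_at and 172673_x_at passed in ogt-1 mutants against the wild type (adjusted p = 0.0383 and 0.0407), as did vit-2 between the mutants (adjusted p = 0.0496), and no other vitellogenin call changed. No label says whether same-numbered arrays belong together, so the block was kept as an alternative. The same probe sets also passed with quantile normalization (limma adjusted p = 0.0154, 0.0488 and 0.0201) and with array weights (0.0256, 0.0265 and 0.0232). Their calls thus depend on the choice of fit, and not on the block alone.

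Over all probe sets, the 58 calls in oga-1 mutants against the wild type became 91 with quantile normalization, 94 with an intensity trend, 848 with array weights, 97 with arrays centred on bright probe sets, and 9 to 89 when 1 array was left out. That centring also turned the share of lower calls from 53.0% to 71.9% in ogt-1 mutants against the wild type, from 59.7% to 69.8% between the mutants and from 25.9% to 48.5% in oga-1 mutants, where quantile normalization gave 45.1%. Some uncalled differences near 0 changed sign. The vit-6 probe set 190649_at (-0.01 in ogt-1 mutants against the wild type) gave 0.001 with array weights and -0.10 to 0.11 without 1 array. The yolk uptake gene rme-1 (0.00) gave -0.12 with arrays centred on bright probe sets and -0.17 to 0.12 without 1 array, and unc-62 (0.09) gave -0.031 with that centring. The cause of these changes was not tested. No detection calls were used here, so the distance of dim signals from background is not known, while the vitellogenins other than 172673_x_at were among the bright probe sets.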
